A study of Mus musculus with 4 samples.

Results

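The genes described here are 9 members of the transforming growth factor beta (TGF-β) and activin signaling pathway, measured in single cells of the mouse mammary gland from the bud stage to birth. They were chosen by symbol for their place in the pathway. The ligands were Tgfb1, Tgfb2, Tgfb3 and Inhba, the receptors were Tgfbr1, Tgfbr2 and Tgfbr3, and the response genes and inhibitors were Smad7 and Fst. Each of the 9 symbols was listed once at every stage, with the same identifier, among the 30406 genes that the gene lists of all 4 stages share. Of 5896 deposited cell barcodes, 1630 had at least 5000 unique molecular identifiers (UMIs, each marking 1 captured transcript) and at most 6% of them on mitochondrial genes. Of these cells, 1627 could be placed in a tissue.

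The mice were female wild-type animals of strain C57B6 (C57 B6/N in the study's methods), and the tissue was mammary gland collected at embryonic day E13.5, when the buds sink into the mesenchyme, on the following 2 embryonic days (E14.5, E15.5), around the first sprouting, and on the day of birth (P0). At each stage, rudiments of several embryos or pups were pooled into 1 library of 10x 3' single-cell RNA-seq. Live epithelial (EpCAM+) and stromal (EpCAM-) cells had been sorted after removal of cells carrying CD45, CD31 or Ter119, which mark leukocytes, endothelium and red cells. The P0 glands were digested with other amounts of collagenase A and hyaluronidase than the embryonic rudiments, and red blood cells were lysed at P0 alone. Each stage was thus a group of 1 library with no replicate, so no test between stages could be run, and a difference between stages cannot be told apart from a difference between libraries, digestions or sequencing runs. All intervals below are exact 95% intervals that cover counting error only.

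A cell was called epithelial where the summed UMIs of Epcam, Krt8, Krt18, Krt5 and Krt14 exceeded those of Col1a1, Col1a2 and Col3a1, and mesenchymal where the reverse held. From E13.5 to P0 this gave 98, 45, 532 and 230 epithelial cells and 135, 31, 283 and 273 mesenchymal cells. The epithelial groups differed in makeup. In the clustering described further on, 21 of the 98 epithelial cells at E13.5 were mammary bud-like and the others proliferation-like or unnamed, and 55 of 532 at E15.5 were skin epidermis-like. With a coarser clustering 127 were. Unnamed cluster 0 of E13.5, with 31 cells, had 2 of 4 periderm markers raised, too few detected for a name. E14.5 was not clustered, so the makeup of its epithelium is not known here. The paper removed contaminating skin cells from its mammary epithelium, and the tissue rule here did not. The tissue labels could be checked with markers that the rule did not use. The summed level of 8 other epithelial genes was 2036 to 3419.8 UMIs of the gene per 1000000 UMIs of all genes (CPM) in epithelium against 13.1 to 113 CPM in mesenchyme, and that of 9 other mesenchymal genes was 2577 to 9857 CPM in mesenchyme against 41.3 to 110.0 CPM in epithelium. The P0 cells were shallower, with a median of 9973 UMIs in epithelium and 8743 in mesenchyme against 16438 to 26725 in the embryonic groups. No barcode was shared among the kept cells of different stages. Blood and immune genes reached 6585 CPM in P0 mesenchyme, where 4 cells held 16412 of the 16466 hemoglobin UMIs, and at most 12.6 CPM in the other groups. The endothelial list was at 12.0 to 35.1 CPM in mesenchyme, with Tie1 at 0 in every group and Cdh5 at most 1.25 CPM. The rest was Pecam1, at 4.41 to 33.9 CPM in mesenchyme and highest at P0, and Kdr, at 1.20 to 10.2 CPM.

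TGF-β ligands are secreted in a latent form and, once freed, bind the type II receptor TGFBR2, which recruits and phosphorylates the type I receptor TGFBR1. Activins, dimers of inhibin beta chains such as the Inhba product, signal through their own type II and type I receptors, and both branches meet at SMAD2 and SMAD3, which enter the nucleus with SMAD4. In the mammary gland the pathway is best known as a brake on ductal growth and branching, and it acts both on the epithelium and through the stroma. Levels below are CPM summed over all cells of a tissue and stage. Since each 3' molecule is counted once, whatever the length of the transcript, they were not divided by gene length. A level summed over cells does not tell fewer cells with a transcript from fewer transcripts per cell, so shares of cells with a UMI are given where a result turns on them.

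**Figure D1:**
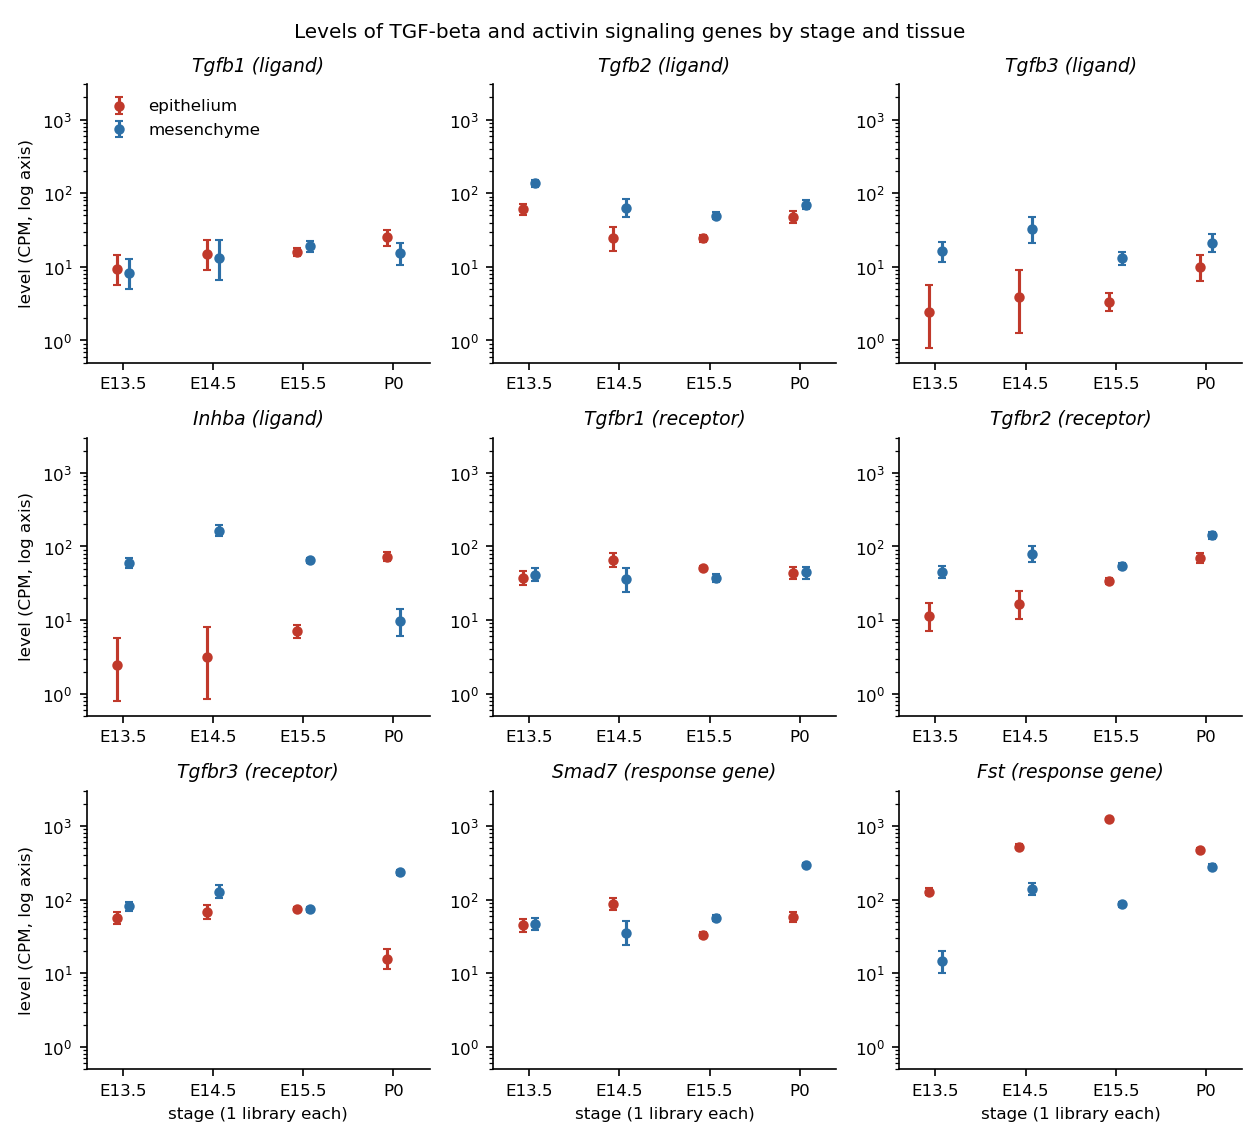
Levels of the 9 genes (CPM, log vertical axis, same scale for each gene) in epithelium and mesenchyme at the 4 stages. Points are summed levels of 1 library each and bars are exact 95% Poisson intervals. The tissue with the higher Inhba level changes between E15.5 and P0, while Tgfbr3 and Smad7 reached 237 and 295 CPM in P0 mesenchyme.

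Tgfb1, the ligand that gave the family its name, was low in all 8 groups. From E13.5 to P0 its epithelial level was 9.31 CPM (from 19 UMIs), 14.9 (8.98 to 23.3), 16.0 (13.9 to 18.2) and 25.2 (19.5 to 32.1). In mesenchyme it stood at 8.30 CPM (5.07 to 12.8), 13.1 (6.55 to 23.5), 19.0 (16.0 to 22.5) and 15.2 (10.7 to 20.8) at the same stages. The tissues lay within a fold of 2 of each other at every stage. The summed epithelial levels were ordered by stage, but the 21 mammary bud-like cells of E13.5 stood at 29.6 CPM (14.2 to 54.5, from 10 UMIs), above the P0 level, against 2.66 to 7.19 CPM in the other 3 clusters of E13.5 epithelium. The fold of epithelium over mesenchyme was 1.67 (1.10 to 2.55) at P0, and its interval included 1 at the other stages. In the order of the 8 levels, no neighbouring pair differed beyond counting error.

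Tgfb2 gave the most UMIs of the TGF-β ligands in every group. Its epithelial levels were 60.2 CPM (50.1 to 71.9), 24.3 (16.5 to 34.6), 24.6 (22.1 to 27.3) and 47.4 (39.4 to 56.5) from E13.5 to P0. Its mesenchymal levels were 136 CPM (121 to 151), 63.2 (47.4 to 82.7), 49.7 (44.7 to 55.1) and 70.2 (60.2 to 81.4). Mesenchyme was higher at every stage, and the summed levels of both tissues were highest at E13.5 and lowest at E14.5 or E15.5. In E13.5 epithelium, however, 93 of the 123 UMIs lay in unnamed cluster 0, led by Hopx, Gabrp and Krt17. The 21 mammary bud-like cells stood at 41.5 CPM (22.7 to 69.6), and the fold of P0 epithelium over them was 1.14 (0.657 to 2.15). The ratio of Tgfb2 to Tgfb1 UMIs was 6.47 (3.97 to 11.1) in E13.5 epithelium and 16.4 (10.4 to 27.1) in E13.5 mesenchyme. At P0 the ratio was 1.88 (1.38 to 2.57) and 4.63 (3.25 to 6.76), with a low of 1.54 and of 2.62 at E15.5. The mammary bud-like cells of E13.5 held 14 Tgfb2 and 10 Tgfb1 UMIs, so the high epithelial ratio of E13.5 was not theirs.

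Tgfb3, the third ligand of this type, was mainly mesenchymal. Its levels in mesenchyme were 16.2 CPM (11.5 to 22.1), 32.2 (21.2 to 46.9), 13.1 (10.6 to 16.0) and 21.1 (15.8 to 27.6) from the earliest stage to birth. In epithelium they were 2.45 CPM (0.795 to 5.72), 3.93 (1.28 to 9.16), 3.36 (2.48 to 4.45) and 9.94 (6.50 to 14.6). The epithelial levels rest on 5, 5, 48 and 26 UMIs. The fold of epithelium over mesenchyme was 0.151, 0.122, 0.257 and 0.471 at the successive stages, so the tissues were closest at birth. A UMI was found in 21.2% of mesenchymal cells (16.6 to 26.4) and in 7.33% of epithelial cells (5.26 to 9.89) at E15.5, whose median depths of 24376 and 24695.5 UMIs were alike.

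Inhba encodes the inhibin beta A chain, which dimerises to activin A. From E13.5 to P0 it stood in mesenchyme at 60.2 CPM (50.8 to 70.8), 163 (137 to 193), 64.6 (58.9 to 70.7) and 9.57 (6.13 to 14.2). In epithelium it stood at 2.45 CPM (0.795 to 5.72) at E13.5 and 3.14 (0.856 to 8.04) a day later, between 5.69 and 8.51 CPM at E15.5, from 100 UMIs, and at 72.7 CPM (62.7 to 83.8) at P0. The gene was thus a mesenchymal transcript at the embryonic stages and an epithelial one at P0. The fold of epithelium over mesenchyme was 0.0407 (0.0130 to 0.0971), 0.0192 (0.00516 to 0.0503) and 0.108 (0.0864 to 0.135) before birth and 7.59 (4.95 to 12.1) at birth. The embryonic epithelial levels at E13.5 and E14.5 rest on 5 and 4 UMIs.

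The shares of cells followed the same order. At E13.5, 43.7% of mesenchymal cells (35.2 to 52.5) and 3.06% of epithelial cells (0.636 to 8.69) had an Inhba UMI, and at E15.5 55.8% and 9.77% had one. At P0, 19.1% of epithelial and 3.66% of mesenchymal cells had one, at median depths of 9973 and 8743 UMIs. With every cell thinned to 5000 UMIs, 31 of 230 epithelial cells at P0 (9.34% to 18.6%) and 2.20% of mesenchymal cells kept one, and 3.01% of epithelial and 26.9% of mesenchymal cells at E15.5. In P0 epithelium the transcript was concentrated, with 44 of 230 cells holding a UMI and the 23 highest cells holding 85.8% of the UMIs. The highest cell had 20 of the 190 UMIs, and the level without it was 65.3 CPM.

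Tgfbr1, the type I receptor kinase of the TGF-β ligands, varied least among the 9 genes, with the highest of its 8 levels 1.82 times the lowest. Its epithelial levels were 37.7 CPM (29.8 to 47.1), 65.2 (51.9 to 80.8), 51.1 (47.5 to 55.0) and 44.0 (36.3 to 52.8) from E13.5 to P0. Its mesenchymal levels lay between 35.8 CPM at E14.5 and 44.3 CPM at P0. Epithelium was higher at E14.5, with a fold of 1.82 (1.19 to 2.86), and at E15.5, with a fold of 1.38 (1.20 to 1.59). At E13.5 and P0 the folds were 0.908 and 0.994, with intervals that included 1.

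Tgfbr2, the type II receptor that binds the ligand, was higher in mesenchyme at every stage and in both tissues highest at P0. Its epithelial levels were 11.3 CPM (7.14 to 16.9), 16.5 (10.2 to 25.2), 33.9 (31.0 to 37.1) and 69.6 (59.9 to 80.5), in the order of the stages. Its mesenchymal levels were 45.3 CPM (37.2 to 54.6), 78.8 (60.9 to 100.2), 54.1 (48.9 to 59.8) and 143 (128 to 158). The fold of P0 over E13.5 was 6.18 (3.99 to 10.00) in epithelium and 3.15 (2.54 to 3.95) in mesenchyme. In epithelium the thinned share of cells with a Tgfbr2 UMI was 7.14%, 11.1%, 15.4% and 30.4% from E13.5 to P0. The corresponding mesenchymal shares were 20.7%, 38.7%, 21.6% and 41.4%.

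Both receptor chains are needed in 1 cell to respond to a TGF-β ligand. After thinning, 1.02% (0.0258 to 5.55), 2.22% (0.0562 to 11.8), 3.57% (2.16 to 5.52) and 6.52% (3.70 to 10.5) of epithelial cells from E13.5 to P0 held a UMI of Tgfbr1 and of Tgfbr2. In mesenchyme the shares were 2.96%, 6.45%, 3.53% and 9.16%. Without thinning the shares were 9.18%, 24.4%, 34.0% and 16.5% in epithelium and 20.7%, 45.2%, 31.8% and 18.7% in mesenchyme, so the order of the stages depends on depth. At this depth a cell without a UMI of a receptor cannot be said to lack it.

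Tgfbr3 encodes betaglycan, a co-receptor that presents TGF-β2 to TGFBR2 and also binds inhibin. Its mesenchymal levels were 81.0 CPM (70.0 to 93.2), 129 (106 to 156), 73.8 (67.7 to 80.4) and 237 (219 to 257) from E13.5 to P0. Its epithelial levels were 56.3 CPM (46.5 to 67.6), 69.1 (55.4 to 85.2), 74.6 (70.2 to 79.2) and 15.7 (11.3 to 21.3). At E15.5 the tissues were alike, with a fold of epithelium over mesenchyme of 1.01 (0.910 to 1.12). At P0 the fold was 0.0661 (0.0469 to 0.0908), the lowest of the 9 genes at that stage. A Tgfbr3 UMI was found in 11.7% of epithelial and 72.5% of mesenchymal cells at P0, and in 7.39% and 59.3% after thinning. The thinned shares in epithelium at the embryonic stages were 25.5%, 33.3% and 31.0%.

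Smad7 encodes an inhibitory SMAD that TGF-β signaling itself induces and that targets the activated type I receptor. Its mesenchymal levels were 46.9 CPM (38.7 to 56.4), 35.8 (24.2 to 51.1), 56.5 (51.1 to 62.2) and 295 (275 to 318) from E13.5 to P0. Its epithelial levels were 45.1 CPM (36.3 to 55.3), 88.0 (72.4 to 106), 33.4 (30.4 to 36.5) and 58.5 (49.6 to 68.6). The tissue with the higher level changed with the stage. The fold of epithelium over mesenchyme was 0.960 (0.721 to 1.28), 2.46 (1.63 to 3.81), 0.591 (0.517 to 0.676) and 0.198 (0.165 to 0.236) from E13.5 to P0. The P0 mesenchymal level was 3.36 times (2.75 to 4.14) the next highest, that of E14.5 epithelium. After thinning, 61.9% of P0 mesenchymal cells held a Smad7 UMI against 22.6% of P0 epithelial cells and 9.68% to 24.4% of the embryonic mesenchymal cells.

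P0 mesenchyme also stood apart in immediate-early genes, which respond rapidly to stress and to tissue dissociation. The summed level of Fos, Fosb, Jun, Junb, Egr1, Atf3 and Ier2, a list chosen after values were seen, was 5479 CPM there, 5193 in E14.5 mesenchyme and 2205 to 3409 CPM in the other 6 groups. The E14.5 sum was mainly Jun, at 3616 CPM. Fosb was at 743 CPM in P0 mesenchyme and at 40.1 to 84.4 CPM in the 7 other groups. The median mitochondrial share was 1.49% in P0 mesenchyme, 3.4% in E13.5 mesenchyme, 4.45% and 4.27% in mesenchyme on the following 2 embryonic days, and 3.66% to 5.11% in epithelium. The part of these differences in the Smad7, Tgfbr2, Tgfbr3 and Fst levels of P0 mesenchyme was not tested.

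Fst encodes follistatin, a secreted protein that binds activin with high affinity and neutralises it. It was the most abundant of the 9 transcripts in epithelium at every stage, at 129 CPM (114 to 146), 527 (488 to 568), 1248 (1229.6 to 1266) and 478 (452 to 505). In mesenchyme it stood between 10.1 and 20.2 CPM at E13.5, from 35 UMIs, and then at 141 CPM (117 to 169), 86.8 (80.1 to 93.8) and 282 (261 to 303). Epithelium was higher throughout, with a peak at E15.5, while the mesenchymal level was highest at P0. The fold of epithelium over mesenchyme was 8.90, 3.74 (3.07 to 4.59), 14.4 (13.3 to 15.6) and 1.70 (1.55 to 1.87). The highest of the 8 levels was 85.9 times (61.7 to 123) the lowest, the widest range among the 9 genes, and 6 of the 7 neighbouring pairs in the order differed beyond counting error.

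Fst was broad in epithelium at E14.5 and E15.5 and patchy in embryonic mesenchyme. A Fst UMI was found in 38.8%, 82.2%, 92.7% and 58.7% of epithelial cells from E13.5 to P0, and in 25.5%, 64.4% and 83.1% of the embryonic and 115 of 230 P0 cells after thinning. In mesenchyme the shares were 13.3%, 25.8%, 28.6% and 58.2%, and 8.89%, 12.9%, 41 of 283 cells and 45.1% after thinning. The highest 14 of 135, 4 of 31 and 29 of 283 mesenchymal cells held 88.6%, 91.5% and 89.2% of the Fst UMIs at the embryonic stages, and the highest 28 of 273 held 57.1% at P0. At E14.5, 1 mesenchymal cell held 46 of the 118 UMIs, and without it the level was 88.8 CPM instead of 141.

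Setting the activin chain beside its inhibitor, Fst exceeded Inhba in epithelium at every stage, with 52.8 (22.3 to 164), 168 (65.2 to 617), 178 (147 to 219) and 6.58 (5.64 to 7.70) Fst UMIs for each Inhba UMI from E13.5 to P0. In mesenchyme Inhba exceeded Fst at E13.5, by 4.14 to 1 (2.85 to 6.18). The mesenchymal ratio of Inhba to Fst was then 1.16, with an interval that included 1, 0.744 (0.659 to 0.840) and 0.0340 (0.0216 to 0.0510). The ratios at E14.5 and E15.5 lean on single cells, which the intervals do not cover. There 1 mesenchymal cell held 46 of the 118 and 106 of the 630 Fst UMIs. Without that cell Fst was at 88.8 and 72.9 CPM, beside 163 and 64.6 CPM of Inhba in all cells. These are ratios of UMIs, and the capture of the transcripts may differ. In P0 epithelium 30 of 230 cells (8.98% to 18.1%) held a UMI of each gene, and 7.39% after thinning.

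Free RNA from the other tissue bears on the low levels. Over the held-out markers, the level of a mesenchymal gene in epithelium was a median of 0.494%, 0.401%, 0.668% and 0.355% of its level in mesenchyme at the successive stages, with a highest value of 15.9% for Col5a1 at E13.5. Epithelial genes in mesenchyme were at a median of 1.12%, 0.463%, 3.82% and 4.07%. The embryonic Inhba folds of 0.0407, 0.0192 and 0.108 lie above these mesenchymal medians, that of E15.5 also above the highest marker of its stage, Col5a1 at 9.29%, and the part of such RNA in the low epithelial Inhba level was not tested. In P0 mesenchyme, the Inhba level was 0.132 of the epithelial level. The highest epithelial marker there was Grhl2, at 5.35%, which rests on 2 mesenchymal UMIs. The part of free RNA or of droplets with 2 cells in the mesenchymal Inhba level was not tested. Fst in E15.5 mesenchyme has the same limit, at 86.8 CPM against 1248 in epithelium. Epithelial markers in that mesenchyme were at a median of 3.82% and at most 7.71%, for Grhl2. The part of such RNA in this Fst level, and in the folds and ratios that use it, was not tested.

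Between the tissues, the 9 genes were read against all genes with at least 20 UMIs in the tissues together, and a gene was called where its level differed at least 2-fold. This is a rule of size and not a test. At E13.5, Fst was called higher in epithelium, beside 10.3% of 10630 genes, and Tgfb2, Tgfb3, Inhba and Tgfbr2 were called lower, beside 21.9%. At E14.5, Smad7 and Fst were higher, beside 14.7% of 9067 genes, and the same 4 genes were lower, beside 17.5%. At E15.5, Fst was higher, beside 16.8% of 13149 genes, and Tgfb2, Tgfb3 and Inhba were lower, beside 22.5%. At P0, Inhba was higher, beside 24.7% of 10496 genes, and Tgfb3, Tgfbr2, Tgfbr3 and Smad7 were lower, beside 18.9%.

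With 9 genes, these counts lie within a few genes of the shares over all genes, and nothing is read from them. The median log2 fold of the 9 genes was -0.52, -0.90, -0.67 and -0.57 from E13.5 to P0, beside -0.18, 0.02, -0.10 and 0.30 for all genes tested. Tgfb3 was the only one of the 9 called lower in epithelium at all 4 stages. With cells thinned it had too few UMIs for a call at E13.5 and E14.5. The call of Tgfb2 at E13.5 and E15.5, with folds of 0.444 and 0.495, lay near the limit and was lost at a fold of 0.609 when cells were thinned at E13.5 and of 0.527 with a mitochondrial maximum of 10% at E15.5. That of Tgfbr2 at P0, with a fold of 0.488, was lost at 0.555 when cells were thinned and at 0.522 with the mean of each cell's own CPM. With the E13.5 epithelium limited to the mammary bud-like cells, Tgfb1 and Smad7 were called higher than in mesenchyme as well, at folds of 3.57 (1.49 to 7.98) and 3.09 (2.17 to 4.36). Under median-ratio scaling, which sets the median gene to no difference, 17.6% of genes were higher and 23.6% lower in epithelium at P0, and the members called were the same.

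Both tissues were measured in each of the 4 libraries, so the tissue difference could be tested over the libraries. Summed counts were fitted with edgeR's quasi-likelihood test with the library as a block, a fit added after values were seen. The stages stand in for replicates, so that a tissue difference that changed with the stage adds to the spread. Of 10364 genes tested, 10.3% were higher and 11.0% lower in epithelium at a Benjamini-Hochberg adjusted p under 0.05. Of the 9 genes, 1 was higher and 3 were lower.

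The log2 fold of epithelium over mesenchyme in this fit was -2.05 ± 0.35 (adjusted p = 0.0106) for Tgfb3, -1.39 ± 0.29 (adjusted p = 0.0211) for Tgfbr2 and -0.97 ± 0.18 (adjusted p = 0.0137) for Tgfb2, each lower in epithelium in 4 of 4 libraries. The value after ± is the size of the log2 fold divided by the square root of the test's F statistic. It stands in for a standard error, which the fit does not give. Fst was at 2.47 ± 0.61 (adjusted p = 0.0353), higher in 4 of 4. Inhba was at -2.77 ± 1.42 (adjusted p = 0.210), lower in 3 of 4 libraries. Without the E13.5, E14.5 or E15.5 library its adjusted p was 0.462, 0.502 and 0.481. Without P0, the 1 library in which Inhba was higher in epithelium, it was at -4.01 (adjusted p = 0.00194). Leaving out the library with the opposite direction favours that result, so nothing is read from it. Tgfbr3, Smad7, Tgfbr1 and Tgfb1 did not pass, with adjusted p from 0.317 to 0.893. With only 3 libraries left in the fit, the calls were fragile. Fst lost its call without the E13.5, E14.5 or E15.5 library, at adjusted p of 0.125, 0.113 and 0.127, and Tgfb2 likewise at 0.0609, 0.0633 and 0.0586. Tgfbr2 lost it without E13.5 or E14.5, at 0.0822 and 0.0787, and Tgfb3 without E15.5, at 0.0564.

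**Figure D2:**
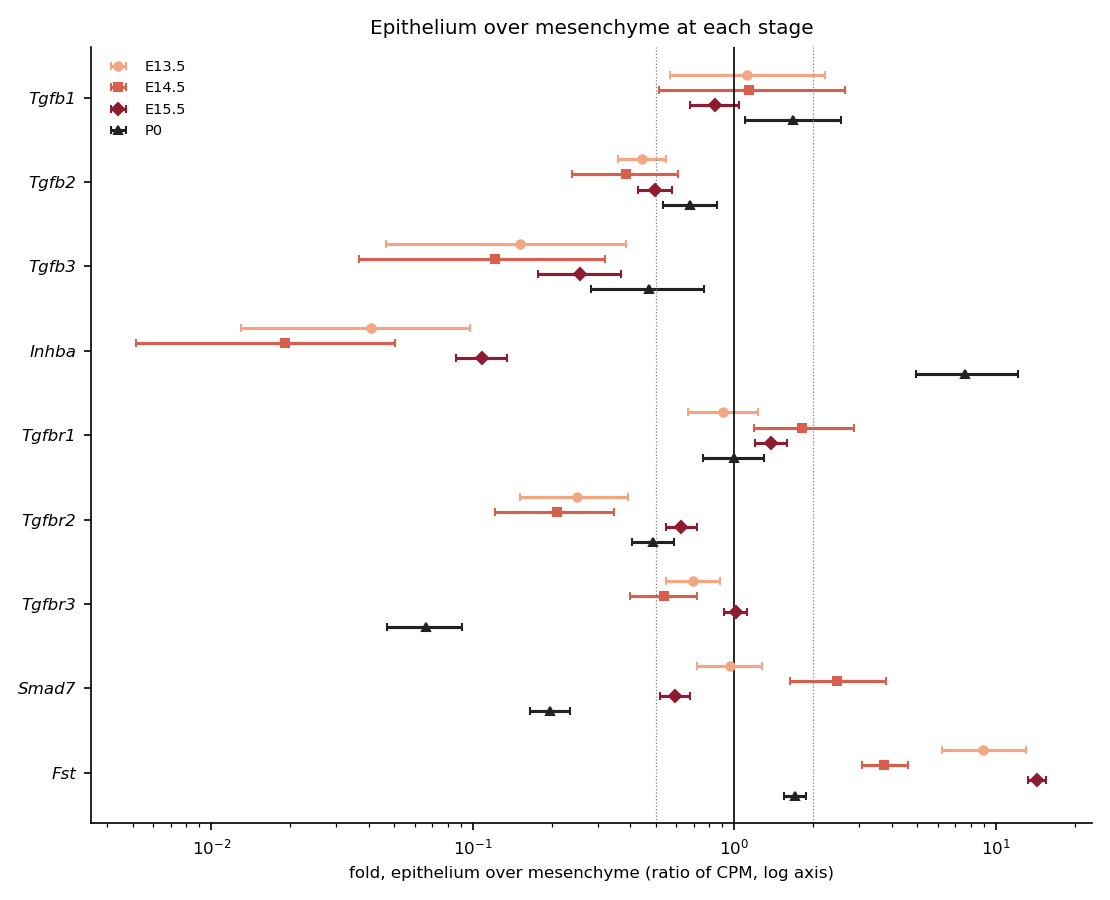
Fold of epithelium over mesenchyme (ratio of CPM, log axis) for the 9 genes at each of the 4 stages, with exact 95% intervals; dotted lines mark 2-fold. Inhba lies left of 1 at the embryonic stages and at 7.59 at P0, and Tgfbr3 and Smad7 lie furthest left at P0, at 0.0661 and 0.198.

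From E13.5 to P0 in epithelium, Tgfb1, Tgfb3, Inhba, Tgfbr2 and Fst were called higher, which is 5 of 9 beside 17.4% of 10105 genes. Tgfbr3 was called lower, beside 20.2%. The fold was 29.7 (12.5 to 92.4) for Inhba, 6.18 for Tgfbr2, 4.06 for Tgfb3, which rests on 5 and 26 UMIs, 3.70 (3.24 to 4.24) for Fst, 2.71 (1.61 to 4.79) for Tgfb1 and 0.278 (0.190 to 0.401) for Tgfbr3. Against the 21 mammary bud-like cells alone, the call of Tgfb1 was lost, at 0.852 (0.436 to 1.86), and Smad7 was called lower at P0, at 0.403 (0.291 to 0.568) instead of 1.30 in all cells. Inhba was at 8.18 (2.76 to 40.0) in that comparison, from 3 UMIs in bud-like cells, Tgfbr2 at 5.88, Fst at 3.84 (2.83 to 5.36) and Tgfbr3 at 0.279 (0.158 to 0.508). Tgfb3 had 1 UMI in these cells, with a ratio of 3.36 (0.552 to 138).

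From E15.5 to P0, Tgfb3, Inhba and Tgfbr2 were called higher, beside 15.0% of 12247 genes, and Tgfbr3 and Fst lower, beside 18.5%. Over that interval the fold was 10.4 (8.11 to 13.4) for Inhba, 0.210 (0.150 to 0.287) for Tgfbr3 and 0.383 (0.362 to 0.406) for Fst. Tgfbr2 and Tgfb3 were at 2.05 and 2.96, and at 1.99 and 1.93 after thinning. Without the skin epidermis-like cells of E15.5 the same genes were called. Fst was thus higher at P0 than at E13.5 and lower than at E15.5.

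In mesenchyme, Tgfbr2, Tgfbr3, Smad7 and Fst were called higher at P0 than at E13.5, which is 4 of 9 beside 14.3% of 10876 genes, and Inhba was called lower, beside 35.8%. The same calls were made against E15.5, beside 14.3% and 28.2% of 11774 genes. The P0 library is shared by both comparisons. Against E13.5 the fold was 19.4 (13.8 to 28.0) for Fst, 6.30 (5.16 to 7.75) for Smad7, 2.93 (2.49 to 3.46) for Tgfbr3, 3.15 for Tgfbr2 and 0.159 (0.0987 to 0.246) for Inhba. Against E15.5 it was 3.24 (2.91 to 3.62), 5.23 (4.63 to 5.92), 3.21 (2.85 to 3.62), 2.64 (2.28 to 3.05) and 0.148 (0.0940 to 0.223) in the same order. The summed levels of Inhba and Tgfbr3 moved in opposite directions in the tissues, Inhba up in epithelium and down in mesenchyme, Tgfbr3 down in epithelium and up in mesenchyme. The 19 basal-like epithelial cells of P0, described further on, did not share the fall of Tgfbr3. They stood at 109.9 CPM (69.7 to 165), against 74.6 CPM in all E15.5 epithelium.

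The median gene was lower at P0, by a log2 shift of -0.55 against E13.5 and -0.43 against E15.5 in mesenchyme, and of -0.14 and -0.13 in epithelium. After median-ratio scaling, 21.2% of genes were higher and 20.4% lower against E13.5 in mesenchyme, and 20.5% and 17.8% against E15.5. In epithelium the shares were 19.8% and 17.1%, and 16.7% and 16.1%. No fold of the 9 genes that was past 2-fold changed direction under this scaling. Tgfb1 in mesenchyme passed 2-fold against E13.5, at 2.67 instead of 1.82. Against E15.5, Tgfb2 in epithelium passed it at 2.10 instead of 1.93, and Tgfb3 in mesenchyme at 2.18 instead of 1.62. The median log2 fold of the 9 genes was 1.44 and 0.81 in epithelium and 0.87 and 0.69 in mesenchyme, beside -0.16, -0.11, -0.59 and -0.42 for all genes tested.

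**Figure D3:**
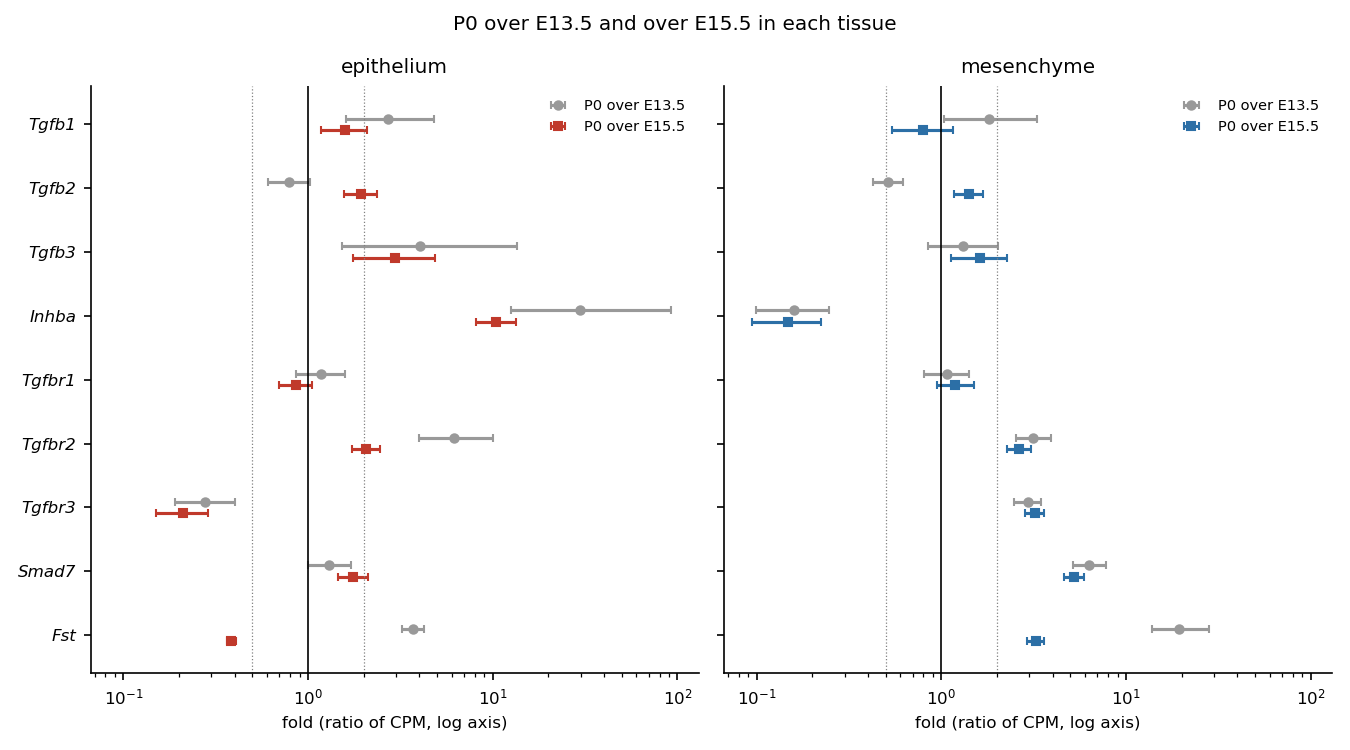
Fold of P0 over E13.5 and of P0 over E15.5 (ratio of CPM, log axis) in epithelium and in mesenchyme, with exact 95% intervals; dotted lines mark 2-fold. Inhba lies at 29.7 and 10.4 in epithelium and at 0.159 and 0.148 in mesenchyme, and Tgfbr3 shows the opposite placement.

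The cells of each tissue at E13.5, E15.5 and P0 were clustered, with the 9 genes and the other pathway genes kept out of the genes that formed the clusters, except Ctgf and Cyr61 at E13.5 and P0, where other symbols stand for them. Of 37 clusters, 22 could be named from marker lists, and the others are given by number and leading genes. At P0, Inhba stood at 159 CPM (128 to 195) in luminal progenitor-like cluster 0, whose 59 cells held 93 of the 190 epithelial UMIs and were led by genes including Aldh1a3. Without its highest cell the cluster was at 133 CPM. Unnamed cluster 4, led by S100g and Ndufa4l2, was at 124 CPM, but 1 of its 21 cells held 20 of the 23 UMIs and it stood at 17.4 CPM without that cell. The 12 proliferation-like cells were at 97.7 CPM (64.9 to 141), and at 69.1 without the highest. The basal-like and mature luminal-like cells were at 43.0 (19.7 to 81.7) and 27.8 CPM (14.8 to 47.5). A second luminal progenitor-like cluster, led by the stress-response genes Fosb and Fos, was at 8.86 CPM (1.83 to 25.9), from 3 UMIs in 1 cell, so the luminal progenitor-like cells did not share 1 level. The place of cluster 0 as highest depends on the clustering. With a coarser one, 122 luminal progenitor-like cells were at 97.4 CPM (80.4 to 117), level with the 12 proliferation-like cells at 97.7 CPM.

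Fst also differed between the luminal progenitor-like clusters at P0, and Tgfb2 between cluster 0 and mature luminal-like cells. Fst stood at 884 CPM (809 to 963) in luminal progenitor-like cluster 0 and at 136 (99.5 to 181) in the cluster led by Fosb, and at 999 CPM (868 to 1144) in basal-like cells, where 1 of 19 cells held 68 of the 209 UMIs. Without the highest cell of each, the basal-like cells were at 716 CPM and cluster 0 at 720.0, so no order between them can be given. In the cluster led by Fosb, 1 cell held 22 of the 46 Fst UMIs. Tgfb2 was at 95.7 CPM (72.3 to 124) in cluster 0 and at 2.14 (0.0541 to 11.9) in mature luminal-like cells, where 1 UMI was found. Tgfbr1 was highest in the cluster led by Fosb, at 103 CPM (72.0 to 144). Tgfbr3 was highest in basal-like cells, which held 23 of the 41 epithelial UMIs, at 109.9 CPM (69.7 to 165) against 0 to 14.8 CPM in the other 6 clusters, and at 94.7 CPM without the highest cell. Smad7 was highest in basal-like cells as well, at 100.4 CPM (62.1 to 153) against 43.2 to 68.4 CPM elsewhere.

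In P0 mesenchyme, Smad7 was high throughout, from 170.3 CPM (138 to 208) in unnamed cluster 0 to 546 (457 to 647) in matrix fibroblast-like cells. Every one of its 7 clusters lay above the 88.0 CPM of E14.5 epithelium, the highest summed level of the other groups. The interval of the lowest cluster overlapped that of the E13.5 mammary bud-like cells, at 145 CPM (107 to 192). Tgfbr3 ranged from 160.4 to 320.2 CPM. Tgfbr2 was at 258 CPM (216 to 306) in unnamed cluster 2, led by genes including Hpgd and the endothelial gene Pecam1, and at 89.6 to 155 CPM in the other clusters. In cluster 2, 1 of 4 endothelial markers was raised, beside 4 of 4 universal fibroblast markers. The endothelial genes Cdh5 and Tie1 had no UMI in P0 mesenchyme, Kdr had 3 and Pecam1 had 85. Of the 24 mesenchymal Inhba UMIs, 16 lay in unnamed cluster 0, whose leading genes included the epithelial genes Epcam and Krt8, at 28.7 CPM (16.4 to 46.6). All 4 adipogenic fibroblast markers were raised in that cluster too. Their mean log2 fold was 1.88 there, against 0.48 in the cluster named adipogenic fibroblast-like. Fst was at 473 to 497 CPM in universal fibroblast-like, matrix fibroblast-like and 1 unnamed cluster and at 48.2 to 208 CPM in the others.

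**Figure D4:**
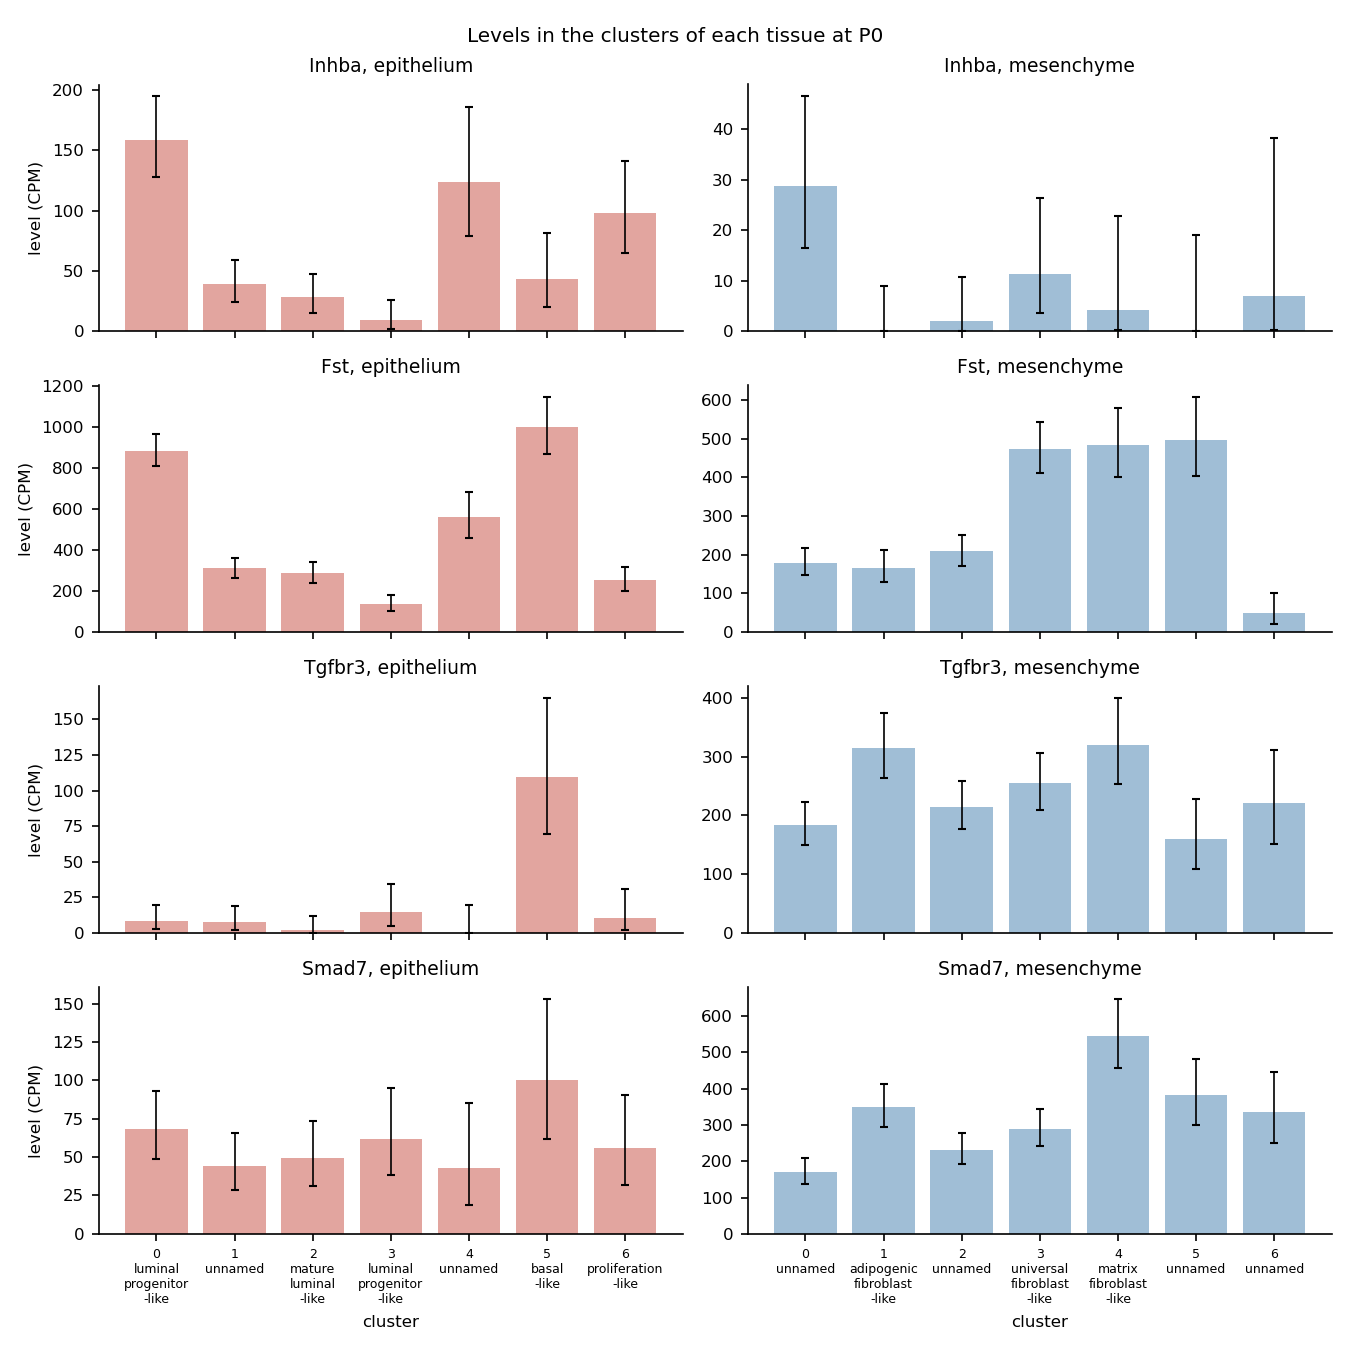
Levels (CPM, bars from 0) of Inhba, Fst, Tgfbr3 and Smad7 in the 7 epithelial and 7 mesenchymal clusters of P0, with exact 95% Poisson intervals and a separate scale in each panel. Inhba is highest in luminal progenitor-like cluster 0, at 159 CPM, Tgfbr3 among epithelial clusters in basal-like cells, at 109.9 CPM, and Smad7 in matrix fibroblast-like cells, at 546 CPM.

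At E15.5, Smad7 set basal-like epithelial cells apart, at 76.2 CPM (65.1 to 88.7) against 18.5 to 33.4 CPM in the other 6 epithelial clusters. Tgfb1 stood at 21.4 CPM (15.8 to 28.5) in basal-like, 5.74 (3.06 to 9.82) in luminal-like and 3.08 (0.999 to 7.18) in skin epidermis-like cells. It was not particular to basal-like cells. With a coarser clustering it was at 21.7 CPM (16.0 to 28.9) in basal-like cells and 25.4 (19.4 to 32.5) in proliferation-like cells. The largest unnamed cluster was at 17.1 (13.7 to 21.1). Fst was at 1409 CPM (1359 to 1459) in basal-like, 559 (528 to 590.3) in luminal-like and 238 (215 to 263) in skin epidermis-like cells, and highest, at 2074 (2002 to 2148), in unnamed cluster 3, led by genes including the heat shock genes Hsph1 and Hspa1b. Tgfb2 had the opposite order in the first pair, with 10.5 CPM (6.65 to 15.7) in basal-like and 31.8 (24.9 to 40.0) in luminal-like cells. The luminal-like name is weak. Of 6 luminal markers, 3 were raised in the luminal-like cluster, at a mean log2 fold of 0.37. In the skin epidermis-like cluster 4 of them were raised, at 2.22, beside 5 of 6 skin epidermis markers, at 3.70. With the coarser clustering most of the luminal-like cells joined the skin epidermis-like cells.

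The ligands were placed differently in E15.5 mesenchyme. Inhba was even, at 51.9 to 82.3 CPM in all 7 clusters. Tgfb2 was at 191 CPM (161 to 224) in dermal mesenchyme-like cells and 126 (101 to 154) in unnamed cluster 4, led by genes including Ccl2 and Gdf10, and at 13.6 to 34.1 CPM in the other 5 clusters. Fst was at 417 CPM (373 to 465) in dermal mesenchyme-like cells, which held 324 of the 630 UMIs, and at 15.6 (9.97 to 23.2) in sub-epithelial mesenchyme-like cells. A further 201 Fst UMIs lay in unnamed cluster 1, led by the epidermal genes Krt14 and Krtdap, where 1 cell held 106 of them. Tgfbr2 was also higher in dermal mesenchyme-like than in sub-epithelial mesenchyme-like cells, at 87.6 (68.0 to 111) and 33.1 CPM (24.6 to 43.5).

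At E13.5, mesenchymal Inhba was highest, at 137 CPM (104 to 178) in sub-epithelial mesenchyme-like cells. The dermal mesenchyme-like clusters were at 73.0 (52.4 to 99.1) and 21.3 (9.74 to 40.4) CPM, and unnamed cluster 4, led by Sox9, Wt1 and Scx, was between 4.55 and 32.7 CPM, with 5 UMIs. Tgfb2 had another order, with 350.3 CPM (292 to 417) in that unnamed cluster and 60.6 to 151 CPM in the others. The dermal mesenchyme-like names of E13.5 are weak, with mean log2 folds of the dermal markers of 0.26 and 0.69. The cluster at 0.69 was at 2.25 over the skeletal muscle markers, none of which counted as detected in it. With the coarser clustering most of the dermal mesenchyme-like cells joined unnamed cluster 4. In the epithelium, mammary bud-like cells had the highest Smad7, at 145 CPM (107 to 192) against 13.3 to 36.3, and the highest Tgfb1, at 29.6 CPM (14.2 to 54.5) against 2.66 to 7.19. Unnamed cluster 0, led by Hopx, Gabrp and Krt17, had 167 CPM (135 to 205) of Tgfb2 against 10.7 to 41.5 in the others, and 5.39 CPM (1.11 to 15.8) of Fst against 124 to 201.

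Of 40 other genes of the pathway, 27 to 36 had enough UMIs to be compared between the tissues at a stage. Ctgf and Cyr61, listed as Ccn2 and Ccn1 at the other stages, were matched by identifier. Those called higher and lower in epithelium numbered 7 and 11 of 29, 10 and 9 of 27, 6 and 14 of 36, and 9 and 11 of 33 from E13.5 to P0, beside the shares over all genes given above. Genes called in the same direction at 3 or 4 stages are named here. Toward epithelium these were Itgb6, a subunit of the integrin that frees latent TGF-β, the activin type I receptor gene Acvr1b, the signal transducer gene Smad3, the SMAD corepressor gene Tgif1 and the cell cycle inhibitor gene Cdkn1a. Cdkn1a was also listed as a target of the pathway. Among the other listed targets, Ctgf and Tagln were called higher in epithelium at E14.5 and P0, and Ctgf was called lower at E13.5 and E15.5. Tgif1 was at 4.44, 11.8, 5.91 and 4.92 times its mesenchymal level from E13.5 to P0. Itgb6 was at 20.6, 18.6 and 39.6 times at E13.5, E15.5 and P0, and at least 5.27-fold higher at E14.5, where no mesenchymal UMI was found and the bound was set at 3 UMIs. Acvr1b was at 4.21, 4.13 and 1.62 times at E13.5, E15.5 and P0.

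Toward mesenchyme these were the ligand gene Gdf11, the latency genes Ltbp3 and Lrrc32, Thbs1, which encodes thrombospondin 1, an activator of latent TGF-β, the pseudoreceptor gene Bambi, the follistatin-related gene Fstl1, the matrix genes Tgfbi and Postn, both known TGF-β targets, and Cyr61, which encodes a secreted matricellular protein. Postn ran from a fold of 0.171 at E13.5 to 0.0726, 0.0185 and 0.00822, and Bambi from 0.286 to 0.283, 0.358 and 0.148. Ltbp3 was at 0.316, 0.286 and 0.281 before birth and at 1.68 at P0. Cyr61 was at 0.201, 0.275 and 0.202 before birth and at 1.86 at P0. Of the SMADs that carry the signal, Smad2 and Smad4 were under 2-fold between the tissues at the embryonic stages, and Smad2 was at 2.91 (2.19 to 3.89) at P0.

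**Figure D5:**
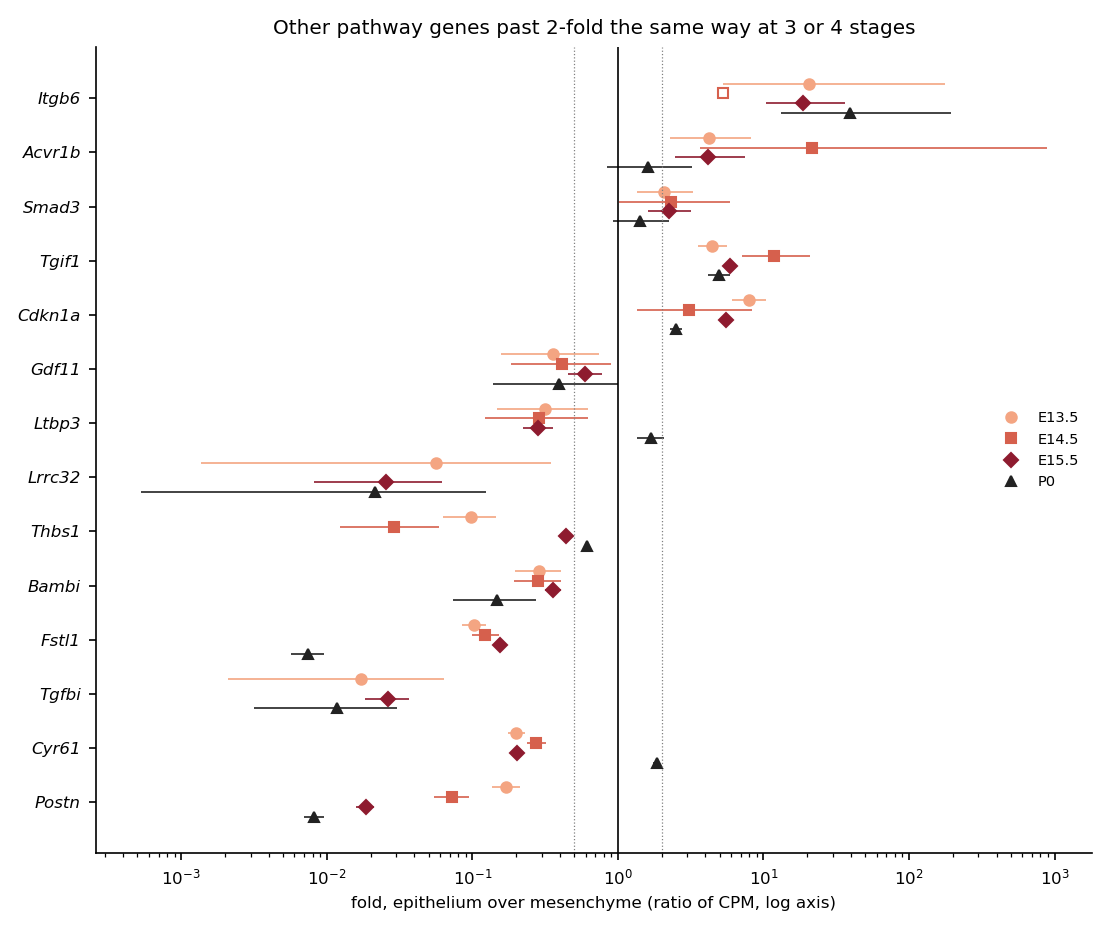
Fold of epithelium over mesenchyme (ratio of CPM, log axis) at each stage for the 14 other pathway genes past 2-fold in the same direction at 3 or 4 stages, with exact 95% intervals. The open square is a lower bound and dotted lines mark 2-fold. Tgif1 lies between 4.44 and 11.8 at every stage, while Postn falls to 0.00822 at P0.

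Between stages, 16 of 30 pathway genes compared were called higher and 5 lower at P0 than at E13.5 in epithelium, beside 17.4% and 20.2% of all genes, and 15 and 6 of 32 in mesenchyme, beside 14.3% and 35.8%. Against E15.5 the numbers were 10 and 4 of 32 in epithelium, beside 15.0% and 18.5%, and 13 and 9 of 33 in mesenchyme, beside 14.3% and 28.2%. In epithelium against E13.5, 7 of the 8 latency and activation genes compared were higher, beside the same 17.4%, Thbs1 among them, at 1249.6 CPM against 12.7. Thbs1 in mesenchyme was at 2045 CPM at P0 against 131 at E13.5 and 203 at E15.5. The next genes were picked after their values were seen, and they moved in both directions. Skil, a rapid TGF-β target, was at 265 CPM in P0 mesenchyme against 34.8 at E15.5, and Pmepa1 was at 386 CPM in P0 epithelium against 113 at E15.5. Tagln, a target that encodes an actin-binding protein, was at 9.97 CPM (6.45 to 14.7) in P0 mesenchyme against 201 at E15.5. Ctgf was at 190.1 CPM in P0 epithelium against 15.1 at E15.5, and at 18.3 CPM in P0 mesenchyme against 176. The second activin chain gene, Inhbb, was at 74.9 CPM (68.8 to 81.5) in E15.5 mesenchyme and 3.59 (1.64 to 6.81) in P0 mesenchyme.

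The activin type II receptor genes did not follow Tgfbr2. Acvr2b was at 48.5 CPM (39.4 to 59.0) in epithelium and 19.5 (14.3 to 26.0) in mesenchyme at E13.5, and at 3.06 (1.32 to 6.03) and 3.99 (1.91 to 7.33) at P0. Acvr2a was at 26.0 (19.4 to 34.0) and 30.7 CPM (24.1 to 38.6) at E13.5 and at 17.6 (12.9 to 23.5) and 17.9 (13.1 to 24.0) at P0. These genes too were picked after their values were seen.

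Across the 8 levels as log2(CPM + 1), the members most alike were Tgfb3 and Tgfbr2, with a Pearson r of 0.85, and Tgfb3 and Inhba, with 0.79, and the least alike were Tgfb2 and Fst, with -0.87. The levels of a stage come from 1 library, so these values are descriptions. Among 9589 genes with at least 200 UMIs, the genes closest to Inhba were Col9a2 and Polr3d, at 0.978 each, and B4galt6, at 0.961. Those closest to Tgfbr3 were St3gal6, Cygb and Ccdc80, at 0.964, 0.963 and 0.958, and those closest to Tgfbr2 were Lrrc8c, Nfix and Dnajc3, at 0.983, 0.972 and 0.969. Micall1, Vcpip1 and Tfe3 were closest to Fst, at 0.965, 0.943 and 0.938. For Smad7 they were Ppa1, Col4a1 and Hba-a1, at 0.942, 0.935 and 0.923, the last being a hemoglobin gene whose UMIs lay mainly in 4 P0 cells.

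For the other ligands and Tgfbr1, the closest gene was Socs5 for Tgfb1, at 0.921, Kif1bp for Tgfb2, at 0.962, Gfpt1 for Tgfb3, at 0.983, and Rab32 for Tgfbr1, at 0.981. Rps27rt and Clasp2 came next for Tgfb1, at 0.916 and 0.914, Mzt2 and Nudt9 for Tgfb2, at 0.955 and 0.936, Sri and Pea15a for Tgfb3, at 0.983 and 0.979, and Kansl3 and Ralgps1 for Tgfbr1, at 0.964 and 0.929.

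In the GENCODE M21 annotation of GRCm38, the mouse genome build called mm10, Inhba lies at chr13:16011851-16031621 on the plus strand and Fst at chr13:114452290-114458951 on the minus strand. Tgfb1 lies at chr7:25687002-25705077 (plus), Tgfb2 at chr1:186622792-186705989 (minus) and Tgfb3 at chr12:86056745-86079041 (minus). Tgfbr1 lies at chr4:47353222-47414931 (plus), Tgfbr2 at chr9:116084293-116175360 (minus) and Tgfbr3 at chr5:107106570-107289629 (minus). Each span runs over the whole gene, exons and introns, and the assay reads the 3' ends of its transcripts.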

How the data were processed

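The authors aligned the reads of each library to the pre-built mm10 reference with Cell Ranger and deposited tables of raw UMI counts per gene and cell barcode, without normalization. The file headers name Cell Ranger 6.0.0 for 3 stages and 3.1.0 for E15.5, whose list holds 31053 genes instead of 32285, and the submitters' processing notes name 6.0.0. The rule for cells and tissues is in the report. No doublet caller was run: doublets had been gated out in the sort, but droplets that captured 2 cells were not searched for, and 2 mesenchymal clusters were led by genes including epithelial ones. Counts were summed per tissue and stage (Python 3.11.15, numpy 2.4.6, scipy 1.17.1, pandas 2.3.3). Levels have exact Poisson, folds conditional binomial and shares exact binomial intervals, which cover counting error only. Clusters were made per tissue and stage with scanpy 1.11.5 and igraph 0.11.9 (Leiden, resolution 0.8, 2000 variable genes, 15 components), and E14.5 was left out for its few cells. With 1 library per stage, no test between stages was computed. The tissue difference was tested over the 4 libraries, as an addition chosen after the data were seen, with edgeR 4.0.16 in R 4.3.3 on the summed counts (quasi-likelihood, library as block, TMM, filterByExpr, Benjamini-Hochberg over all genes), and the fit was tested on simulated data. DESeq2 1.42.0 was an alternative.

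All 9 members are named. Other pathway genes are named where they passed 2-fold in the same direction at 3 or more stages, and for each member the 3 genes with the most similar levels. The members, the lists and the rules were chosen with earlier results of these data known.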

Additional observations from a re-analysis of the deposited data

Results flagged for a closer look

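Some folds pointed in opposite directions at different stages or in different tissues, with intervals on opposite sides of 1. With 1 library per stage these differences could not be tested. Inhba in epithelium over mesenchyme stood at 0.0407, 0.0192 and 0.108 at the successive embryonic stages and at 7.59 at P0. Seen by tissue, its fold of P0 over E13.5 was 29.7 in epithelium and 0.159 in mesenchyme, and that of P0 over E15.5 was 10.4 and 0.148. Tgfbr3 had the reverse arrangement, with 0.278 in epithelium and 2.93 in mesenchyme against E13.5, and 0.210 and 3.21 against E15.5. Its epithelial fall was that of the summed level, while P0 basal-like cells stood at 109.9 CPM. Smad7 was higher in epithelium at E14.5, with a fold of 2.46 that rests on 30 mesenchymal UMIs, and lower at P0, with 0.198. Fst was at 0.383 in epithelium and 3.24 in mesenchyme for P0 over E15.5. All of these share the P0 library, except the E14.5 fold of Smad7 and the embryonic folds of Inhba.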

How the results depend on the processing

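Of 72 member folds, 41 were past 2-fold. Still past it were 41 with a UMI minimum of 3000, 40 with a mitochondrial maximum of 10%, 41 in cells of clear tissue, 37 with cells thinned to 5000 UMIs, 39 with the mean of each cell's own CPM, 40 with median-ratio scaling and 41 without the 4 hemoglobin-rich cells, an alternative chosen after seeing the data. These counts go by the size of the fold alone, without the minimum of 20 UMIs. None of the 41 folds past 2-fold reversed under any of the 7 alternatives. Folds under 2-fold were not counted here, and some crossed 1. Tgfb3 for P0 over E13.5 in mesenchyme was at 1.31 and at 0.883 at the lowest. Tgfb1 for P0 over E15.5 in mesenchyme was at 0.797 and at 1.07 at the highest. With the E13.5 epithelium limited to mammary bud-like cells, also chosen after seeing the data, the fold of Tgfb1 for P0 over E13.5 reversed to 0.852. With the minimum of 20 UMIs, thinning left 3 members past 2-fold between the tissues at E13.5, 3 at E14.5 and 3 for P0 over E15.5 in epithelium. Thinned cells have fewer UMIs by construction, and only 7 members at E13.5 and 4 at E14.5 reached the minimum. It gave 698 genes higher and 1278 lower in epithelium at E13.5, 543 and 485 at E14.5, 1875 lower at E15.5, and 1258 lower for P0 over E13.5 in epithelium. Median-ratio scaling gave 2218 and 2093 genes lower at P0 in mesenchyme against E13.5 and E15.5. A minimum of 50 UMIs gave 1455 genes lower at E13.5, and 766 higher and 887 lower at E14.5. A minimum of 1 UMI, which admits more genes by construction, gave 3202 higher and 4219 lower in epithelium at E13.5, 2023 and 4459 at E14.5, 5660 lower at E15.5, and 4682 and 4282 at P0. For P0 over E13.5 it gave 3437 and 4437 in epithelium and 3367 and 6468 in mesenchyme, and for P0 over E15.5 it gave 6408 and 5419 higher in epithelium and mesenchyme. Thinned, 20 of 72 levels and 67 of 72 shares moved beyond their interval. Depth limits Inhba and Tgfb3 in embryonic epithelium, with 4 to 5 UMIs at E13.5 and E14.5. In the edgeR fit over the 4 libraries, 1067 genes were higher and 1140 lower in epithelium. DESeq2 gave 1799 lower, and called Inhba (adjusted p = 0.00890). With no replicate block, 619 were higher and 742 lower, and Tgfb2, Tgfbr2 and Fst lost their calls, at edgeR adjusted p of 0.190, 0.272 and 0.203; the pairing comes from the shared library. Leaving out 1 library gave 335 to 1427 higher and 548 to 1500 lower, and the log2 fold of Smad7 ran from -1.07 without E14.5 to 0.19, reversed, without P0.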
